A study of Mus musculus with 20 samples.

Results

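The genes of the xenobiotic receptors CAR and PXR and of their best-known hepatic targets, read from the count table by their Ensembl identifiers, were followed across all 20 libraries: the receptors Nr1i3 and Nr1i2 and the target genes Cyp2b10, Cyp2b9, Cyp2b13, Cyp2c29, Cyp2c55, Cyp3a11 and Gstm3. They are 9 of the 21780 genes of the table, and all 9 were among the 15522 genes tested. Identifiers were paired with symbols through the GENCODE M21 annotation.

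The livers came from male C57Bl/6J mice, all of which ate a high-fat diet (HFD, 42% of calories from fat) and all of which received corn oil by gavage. The 4 groups of 5 mice each were HFD control (corn oil alone), HFD + Aroclor (the commercial mixture Aroclor 1260, 20 mg/kg), HFD + PCB 126 (a single dioxin-like congener, 20 μg/kg) and HFD + Aroclor + PCB 126 (both at those doses). Per the methods, mice were 8 weeks old when the diet began and 10 weeks old at a single gavage. The diet lasted 12 weeks per the labels, and the methods place collection of the liver 10 or 12 weeks after the gavage, depending on the passage. No group without HFD and no untreated group was analysed here, so each value is a level on HFD. The doses of the PCB preparations differed by their nature, and their values are therefore set side by side without a direct comparison.

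CAR (encoded by Nr1i3) and PXR (encoded by Nr1i2) are nuclear receptors that sense drugs and pollutants in hepatocytes. Each pairs with the retinoid X receptor RXR and binds repeats of a short half-site near cytochrome P450, transferase and transporter genes. CAR rests in the cytoplasm until an activator releases it, and Cyp2b10 is its classic mouse target, whereas Cyp3a11 is the classic target of PXR. The pathways overlap, because each receptor can act on genes of the other. Many non-dioxin-like PCBs are known activators of CAR and PXR, while PCB 126 is known for binding another sensor, the aryl hydrocarbon receptor (AhR), which drives Cyp1a1 and Cyp1a2.

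Stretches upstream of the transcription start are shown for the targets that the comparisons below turn on, to show how nearly identical Cyp2b9 and Cyp2b13 are and which receptor motifs the stretches hold. They were read 5′ to 3′ on the coding strand from RefSeq on GRCm38.p6, which held a promoter window (250 bases before to 50 after the start) for 9 of the 9 genes, and only bases before the first annotated exon are printed. Capitals mark the half-site AGGTCA, or in Cyp3a11 the whole direct repeat that contains it, and in Cyp2b10 the AhR core GCGTG read on the opposite strand.
Cyp2b10: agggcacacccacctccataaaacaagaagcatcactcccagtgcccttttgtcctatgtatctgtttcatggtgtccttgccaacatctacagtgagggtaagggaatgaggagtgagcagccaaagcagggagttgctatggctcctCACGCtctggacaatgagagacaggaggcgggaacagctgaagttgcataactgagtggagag
Cyp2b9: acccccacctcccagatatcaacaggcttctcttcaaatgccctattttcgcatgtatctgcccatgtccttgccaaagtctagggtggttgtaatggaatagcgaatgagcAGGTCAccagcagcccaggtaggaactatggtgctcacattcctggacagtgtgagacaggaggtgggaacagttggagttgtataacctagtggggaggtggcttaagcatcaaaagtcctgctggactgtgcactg
Cyp2b13: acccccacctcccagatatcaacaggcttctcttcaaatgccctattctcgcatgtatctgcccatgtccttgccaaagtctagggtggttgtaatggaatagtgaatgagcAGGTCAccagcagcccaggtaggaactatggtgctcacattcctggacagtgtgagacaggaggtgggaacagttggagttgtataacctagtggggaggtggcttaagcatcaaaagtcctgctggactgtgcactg
Cyp3a11: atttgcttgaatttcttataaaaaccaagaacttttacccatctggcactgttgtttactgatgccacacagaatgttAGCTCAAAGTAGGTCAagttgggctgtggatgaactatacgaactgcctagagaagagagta
Cyp2c29: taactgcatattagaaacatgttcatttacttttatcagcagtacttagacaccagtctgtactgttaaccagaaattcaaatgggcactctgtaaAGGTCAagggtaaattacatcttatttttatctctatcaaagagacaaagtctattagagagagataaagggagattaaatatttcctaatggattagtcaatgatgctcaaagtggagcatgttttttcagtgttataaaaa
The stretches lie at chr7:25897408-25897619 (plus strand) for Cyp2b10, chr7:26173159-26173408 (plus strand) for Cyp2b9, chr7:26061245-26061494 (plus strand) for Cyp2b13, chr5:145879965-145880104 (minus strand) for Cyp3a11 and chr19:39286835-39287073 (plus strand) for Cyp2c29. Cyp2b9 and Cyp2b13 were identical at 298 of 300 window positions. The differences were T48C and C104T, with the Cyp2b9 base first and positions counted from 1 at the first base of the window. The Cyp2c29 stretch lies inside an intron of a longer annotated transcript of that gene, which begins further upstream.

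The half-site AGGTCA, searched on both strands, began 162 bases before the start in Cyp3a11, 154 before it in Cyp2c29 and 138 before it in both Cyp2b9 and Cyp2b13, and 16.2% of 32544 promoter windows of the same length held it. A direct repeat of AGNTCA with 4 bases between the copies, a known binding form for both receptors, was found in the Cyp3a11 window and overlapped its half-site. Such a repeat was in 0.126% of windows. Neither a direct repeat with 3 bases between (0.0707% of windows) nor an everted repeat with 6 (0.0307% of windows) was matched in the 9 windows. The Cyp2b10 window held no AGGTCA but held the AhR core at 2 places, 101 bases before the start and 9 bases before it, the second lying outside the printed stretch. The core was in 32.6% of windows. These are matches of letters in a short window, and the known distal response modules of these genes lie outside it.

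The total count was 21836506 to 36854887 per library, and HFD control replicate 4 was the shallowest. Levels are given as CPM, which are counts scaled to a common library size after TMM normalization. The 7 hepatocyte markers summed to 73340 to 103400 CPM across the libraries, and no marker was at 0. In bulk liver, fewer cells of a type and less RNA per cell cannot be told apart. Libraries also differed in how counts followed the GC content of transcripts. The slope, in log2 units per 10 percentage points of GC, averaged 0.23 ± 0.13 (SD, n = 5) in the controls and -0.00057 ± 0.073, 0.10 ± 0.18 and -0.33 ± 0.16 with Aroclor, PCB 126 and both. The combined exposure differed from HFD control by -0.56 (two-sided exact permutation test, p = 0.00794, the smallest that all splits of 5 mice against 5 allow), Aroclor by -0.23 (exact p = 0.0159) and PCB 126 by -0.13 (exact p = 0.222). Results with the combined exposure are therefore given also with each library's GC trend removed.

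In HFD control liver, levels per transcript length (FPKM, which is CPM per kilobase of exon) ordered the genes as follows. Cyp3a11, a broad-substrate monooxygenase, stood at 506 ± 127 FPKM (SD, n = 5) and Cyp2c29, which oxidises drugs and fatty acids, at 346 ± 132. Nr1i3 stood at 101 ± 44.8 and Nr1i2 at 36.6 ± 6.85. Gstm3, a glutathione transferase, had 19.0 ± 19.5 FPKM and Cyp2b9, a P450 that is female-predominant in mouse liver, 8.99 ± 13.4. Cyp2b10 had 1.68 ± 1.35, Cyp2c55, a P450 known for strong induction by CAR and PXR activators, 0.880 ± 0.505 and Cyp2b13, a further female-predominant P450, 0.360 ± 0.502. By mean ± SD, only the steps from Cyp2c29 to Nr1i3 and from Nr1i3 to Nr1i2 separated neighbours in this order.

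**Figure D1:**
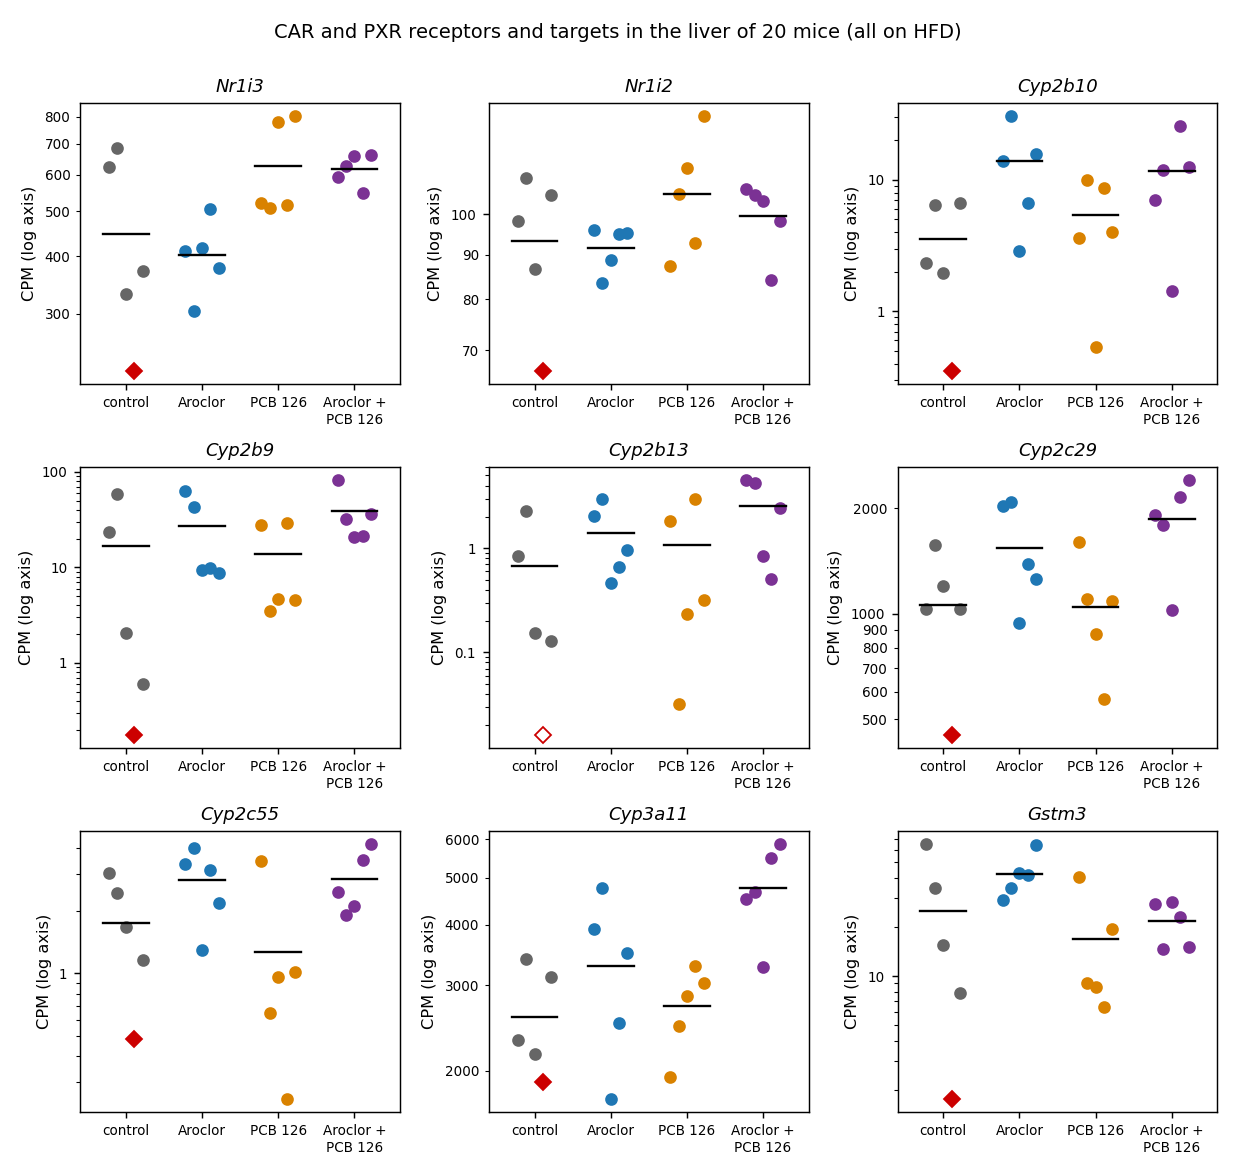
CPM on a log axis (vertical) for each of the 9 genes in each of the 20 mice, by group, with points for mice and black bars for the group means. The red diamond is HFD control replicate 4, which had the lowest control value for 9 of 9 genes; its Cyp2b13 value was 0 and is drawn as an open diamond below the lowest measured value.

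The control mice differed widely among themselves, and 1 mouse was at the bottom throughout. HFD control replicate 4 had the lowest control level for 9 of 9 members, whereas it was the lowest control for 31.8% of the 11342 genes with a mean of at least 1 CPM. HFD control replicate 2 had the highest level for 6 of 9, against 13.5% of those genes. In the other groups no mouse was lowest for more than 5 of the 9. Among the 8 members with a count in every control, the spread was greatest for Cyp2b9, whose highest control value was 332-fold the lowest, followed by Gstm3 with 37.0-fold and Cyp2b10 with 18.9-fold, and was 1.66-fold for Nr1i2. Cyp2b13 had no count in HFD control replicate 4 and 79 in the highest control, so it has no such ratio. The plot of CPM by mouse shows this mouse as the lowest control point in every panel.

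Nr1i3, the gene of CAR, had 623, 686, 331, 225 and 371 CPM in HFD control replicates 1 to 5. In HFD + Aroclor it had 411, 305, 417, 506 and 377 CPM, and with PCB 126 it had 522, 507, 778, 515 and 804. With both exposures it had 592, 628, 658, 548 and 662 CPM. Every mouse given both was above every mouse given Aroclor alone, while the controls spanned both ranges. Against HFD control, the log2 fold change (log2FC) was -0.15 ± 0.23 (SE) with Aroclor, 0.48 ± 0.23 with PCB 126 and 0.47 ± 0.23 with both (edgeR adjusted p = 0.74, 0.336 and 0.13). Between the combined exposure and Aroclor it was 0.62 ± 0.23 (edgeR adjusted p = 0.127, DESeq2 adjusted p = 0.0452). None of these differences passed the threshold in edgeR.

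The count of Nr1i3 carries a limit of its own. Nr1i3 (ENSMUSG00000005677, chr1:171213970-171220701, plus strand) shares exon bases with Tomm40l, a mitochondrial import gene on the opposite strand, and 41.9% of its 75-base windows occur in no other gene. The libraries were stranded, but whether the counting used strand is not given in the sources used here. Tomm40l was counted at 11.4 ± 1.69 CPM in HFD control and 7.44 ± 1.38 with the combined exposure (SD, n = 5), a log2FC of -0.62 ± 0.14 (edgeR adjusted p = 0.00336), while Nr1i3 was at 447 ± 198 and 618 ± 48.3 CPM. The Tomm40l difference was -0.34 with the GC trend removed (edgeR adjusted p = 0.105). What reads near this overlap add to Nr1i3 was not tested.

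Nr1i2, the gene of PXR, varied least of the 9 between the control mice. It had 98.2, 110, 86.7, 66.3 and 105 CPM in HFD control, and 95.9, 83.4, 88.8, 94.99 and 95.1 in HFD + Aroclor. It had 87.3, 106, 113, 92.7 and 129 CPM in HFD + PCB 126 and 107, 105, 104, 84.2 and 98.4 with both. All 4 groups overlapped. The log2FC against HFD control was -0.03 with Aroclor (95% interval -0.29 to 0.23), 0.18 with PCB 126 (-0.08 to 0.44) and 0.09 with both (-0.17 to 0.35), with edgeR adjusted p = 0.924, 0.525 and 0.613. Nr1i2 lies at chr16:38248323-38294824 on the minus strand, and 100% of its windows were unique.

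Cyp2b10 had the largest fitted difference with Aroclor of any member. It had 2.33, 6.48, 1.95, 0.351 and 6.62 CPM in HFD control and 14.0, 30.7, 2.89, 6.64 and 15.7 in HFD + Aroclor. With PCB 126 it had 3.64, 9.99, 0.530, 8.71 and 4.01 CPM, and with both 7.09, 11.9, 1.43, 25.7 and 12.5. In HFD + Aroclor 4 of 5 mice and with both exposures 4 of 5 mice were above every control, and 1 mouse of each of these groups fell within the control range. Mean levels were 3.54 ± 2.84, 14.0 ± 10.7, 5.38 ± 3.90 and 11.7 ± 8.98 CPM in the 4 groups in that order (SD, n = 5).

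The log2FC of Cyp2b10 with Aroclor was 1.97 ± 0.75 (SE), a 3.92-fold higher fitted level with a 95% interval of 0.42 to 3.52 on the log2 scale. Its unadjusted p was 0.0155 and the edgeR adjusted p 0.222, so it did not pass. With PCB 126 the log2FC was 0.59 (edgeR adjusted p = 0.761) and with both 1.72 ± 0.75 (edgeR adjusted p = 0.083). The combined value passed without HFD + Aroclor + PCB 126 replicate 3, the mouse at 1.43 CPM, with a log2FC of 1.98 (edgeR adjusted p = 0.0381). Removing the GC trend left 1.93 with Aroclor and 1.58 with both (edgeR adjusted p = 0.348 and 0.189). The interaction of the exposures, which asks whether both together differ from the sum of the single log2 effects, was -0.84 with a 95% interval of -2.98 to 1.3.

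Cyp2b9 and Cyp2b13 varied more between mice of a group than between group means. Cyp2b9 had 23.3, 58.2, 2.06, 0.175 and 0.602 CPM in HFD control, and 63.1, 43.1, 9.39, 9.89 and 8.83 in HFD + Aroclor. With PCB 126 it had 27.8, 3.48, 4.64, 28.9 and 4.50 CPM and with both 82.4, 32.4, 20.9, 21.1 and 35.8. The lowest mouse with both exposures was above 3 of the 5 controls, and the groups overlapped. Its log2FC with both exposures was 1.17 ± 0.97 (edgeR adjusted p = 0.384), with Aroclor 0.65 (0.732) and with PCB 126 -0.30 (0.919). Leaving out 1 mouse moved the first of these to between 0.69 (without HFD + Aroclor + PCB 126 replicate 1) and 2.49 (without HFD control replicate 2, edgeR adjusted p = 0.0697).

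Cyp2b13 stayed low, with 0 to 79 counts in the controls and 14 to 103 with both exposures. Its CPM was 0.836, 2.25, 0.152, 0 and 0.129 in HFD control, and 4.53, 4.26, 0.840, 0.509 and 2.45 with both. It was 0.462 to 2.95 CPM (median 0.953) with Aroclor and 0.0322 to 2.95 (median 0.317) with PCB 126. Again 3 of 5 controls were below every mouse with both exposures, and the groups overlapped. The log2FC with both was 1.81 ± 0.93 (edgeR adjusted p = 0.143), and it became 2.98 (edgeR adjusted p = 0.0351) without HFD control replicate 2, the control with the highest value. Its counts are uncertain, since 83.6% of its windows were unique and the others were shared mainly with the pseudogene Gm45225, with Cyp2b9 and with Cyp2b10. The unique share was 94.8% for Cyp2b9 and 97.2% for Cyp2b10, which lie with it on chromosome 7.

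Cyp3a11 was higher with the combined exposure. It had 2312, 3394, 2167, 1893 and 3116 CPM in HFD control, and 4524, 4661, 3267, 5495 and 5866 in HFD + Aroclor + PCB 126. With Aroclor it had 3923, 4749, 1749, 2507 and 3491 CPM and with PCB 126 1940, 2468, 2850, 3283 and 3027. With both exposures, 4 of 5 mice exceeded every control, and replicate 3 lay within the control range. Mean levels were 2577 ± 645 CPM in HFD control and 4763 ± 1007 with both (SD, n = 5), a log2FC of 0.89 ± 0.23 (SE, edgeR adjusted p = 0.0065). With the GC trend removed, the log2FC was 0.36 and the edgeR adjusted p 0.395, so the call was lost. The log2FC was 0.35 with Aroclor (edgeR adjusted p = 0.417, and 0.11 with the GC trend removed) and 0.07 with PCB 126 (0.914).

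Against PCB 126 alone, Cyp3a11 was also higher with both exposures, by 0.81 ± 0.23 (SE, edgeR adjusted p = 0.0258). That call was lost with the GC trend removed (log2FC 0.36, adjusted p = 0.402) and when any 1 of 4 mice was left out, namely HFD + PCB 126 replicates 3 and 4 (adjusted p = 0.0667 and 0.0545) and HFD + Aroclor + PCB 126 replicates 4 and 5 (0.0809 and 0.0727). The call against HFD control held when each of the 10 mice was left out in turn. Cyp3a11 lies at chr5:145854426-145879964 on the minus strand, and 98.3% of its windows were unique.

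Cyp2c29 had 1032, 1573, 1204, 452 and 1030 CPM in HFD control and 1913, 1791, 1029, 2156 and 2411 with both exposures. It had 2026, 2084, 942, 1384 and 1258 CPM with Aroclor and 1605, 1101, 878, 573 and 1088 with PCB 126. As for Cyp3a11, replicate 3 was the only mouse with both exposures inside the control range. The log2FC with both was 0.81 ± 0.30 (SE, edgeR adjusted p = 0.0437), with Aroclor 0.54 (0.346, and 0.31 with the GC trend removed) and with PCB 126 -0.01 (0.993). The first of these was past the threshold by little. It was lost without any 1 of HFD control replicates 1, 3, 4 and 5 or HFD + Aroclor + PCB 126 replicates 1, 2, 4 and 5 (adjusted p = 0.0545 to 0.111), and with the GC trend removed it was 0.33 (adjusted p = 0.54). Against PCB 126 alone the log2FC was 0.83 (edgeR adjusted p = 0.0628), and it passed without HFD + PCB 126 replicate 1 (0.0247) or HFD + Aroclor + PCB 126 replicate 3 (0.0319).

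Cyp2c55, in the same gene cluster on chromosome 19 as Cyp2c29 but expressed at a far lower level per length, had 3.03, 2.43, 1.68, 0.482 and 1.16 CPM in HFD control. It had 3.36, 4.03, 1.3, 3.14 and 2.18 CPM with Aroclor and 3.46, 0.644, 0.960, 0.249 and 1.02 with PCB 126. With both it had 2.46, 1.92, 2.10, 3.53 and 4.20 CPM. All groups overlapped, and 1 mouse given PCB 126 stood well above the other 4. The log2FC was 0.65 with Aroclor (edgeR adjusted p = 0.488, and 0.39 with the GC trend removed), -0.47 with PCB 126 (0.709) and 0.67 with both (0.326, and 0.15 with the GC trend removed). Between both exposures and PCB 126 it was 1.14 (edgeR adjusted p = 0.113), and 1.97 (0.0082) without HFD + PCB 126 replicate 1.

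Gstm3 had 64.97, 34.6, 15.6, 1.75 and 7.91 CPM in HFD control, and 29.5, 35.0, 43.2, 41.6 and 63.7 with Aroclor. It had 40.6, 9.09, 8.61, 6.47 and 19.6 CPM with PCB 126 and 27.9, 14.7, 28.4, 22.9 and 15.0 with both. Every mouse with both exposures was below every mouse given Aroclor alone, a log2FC of -0.97 ± 0.60 (SE, edgeR adjusted p = 0.332). Against HFD control the log2FC was 0.76 with Aroclor, -0.57 with PCB 126 and -0.21 with both (edgeR adjusted p = 0.5, 0.7 and 0.831). Only 78.4% of its windows were unique, since other transferases of its family and their pseudogenes carry the same stretches.

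**Figure D2:**
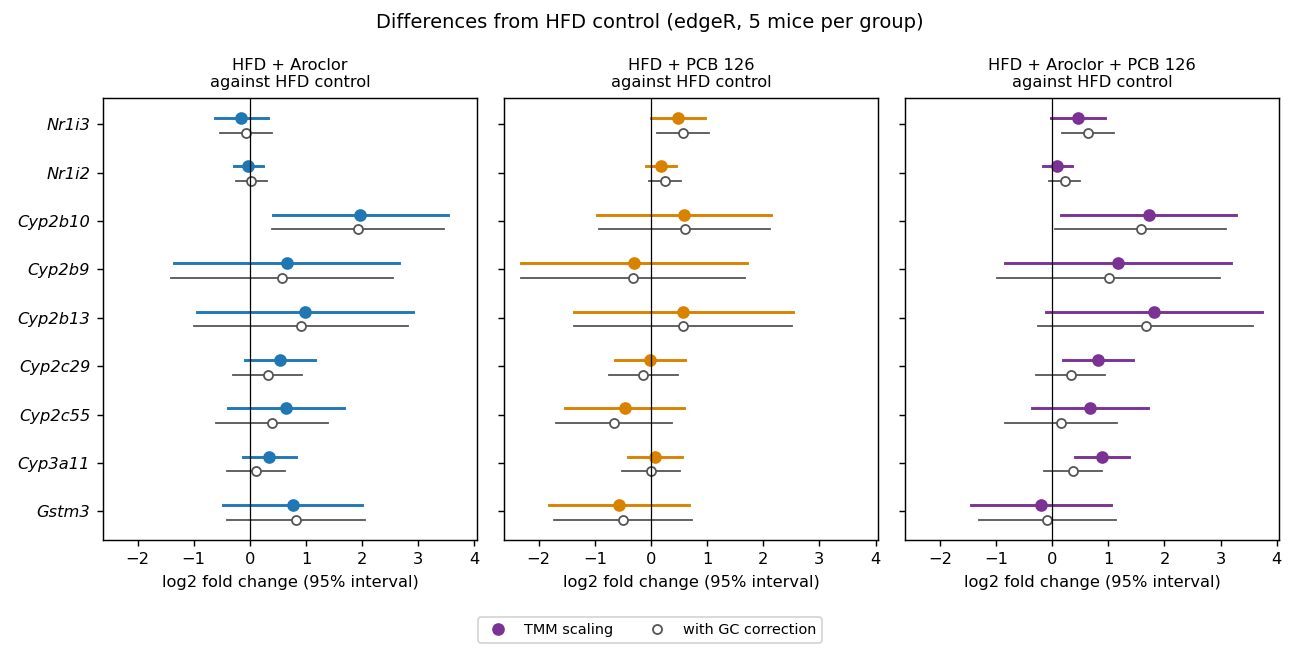
Log2 fold change against HFD control (horizontal axis) for the 9 genes with each exposure, from 5 mice per group. Filled points with thick lines are edgeR estimates with 95% intervals, and open points with thin lines are the estimates with each library's GC trend removed; the combined exposure's Cyp3a11 and Cyp2c29 estimates move from 0.89 and 0.81 to 0.36 and 0.33.

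With Aroclor, 0 of 9 members passed an adjusted p of 0.05 in edgeR, as did 0% of all tested genes. Only 1 member, Cyp2b10, had an unadjusted p under 0.05, a level that 17.2% of tested genes reached, and 0 members passed in DESeq2. No member was free of overlap with HFD control, against 2.94% of tested genes. With PCB 126, 0 of 9 passed in edgeR against 0.116% of tested genes, and 0 passed in DESeq2. Again 1 member, here Nr1i3, had an unadjusted p under 0.05 (0.0481), against 14.7% of tested genes, and 0 were free of overlap against 2.14%.

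With both exposures, 2 of 9 members (Cyp3a11 and Cyp2c29) passed against HFD control, against 32.8% of all tested genes. With only 9 members, this count cannot be told apart from the share of the table. An unadjusted p under 0.05 was reached by 3 members (Cyp2b10 besides Cyp3a11 and Cyp2c29), against 42.4%, and 0 were free of overlap against 18.8%. With the GC trend removed, 0 members passed in edgeR, against 6.64% of tested genes. An unadjusted p under 0.05 was then reached by 2 members, Nr1i3 and Cyp2b10, against 24.4%. Fitting only the groups compared left Cyp3a11 alone. Leaving out 1 mouse at a time, the count was 1 without any of the 8 mice named for Cyp2c29. It was 3 without HFD + Aroclor + PCB 126 replicate 3 (Cyp2b10 added), where 5269 genes of the whole table passed. Without HFD control replicate 2 it was 4, with Cyp2b13 and Nr1i3 (log2FC 0.65, edgeR adjusted p = 0.0356) added, and 4252 genes of the whole table passed. Without any of the 8 mice, 3894 to 5679 genes passed.

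Against Aroclor alone, the combined exposure gave 0 of 9 members past the threshold in edgeR (0.412% of tested genes). In DESeq2 1 member, Nr1i3, passed, as did 1343 of all 15522 tested genes. An unadjusted p under 0.05 was reached by 2 members (Nr1i3 and Cyp3a11), against 23.4%. Nr1i3 (higher with both) and Gstm3 (lower with both) did not overlap between these groups, which held for 6.76% of tested genes. Against PCB 126 alone, 1 of 9 members (Cyp3a11) passed, against 16.7%, 3 had an unadjusted p under 0.05, against 35.6%, and 0 were free of overlap against 9.9%. The count past the threshold was 0 without any 1 of the 4 mice named for Cyp3a11, where 4 to 954 genes of the whole table passed. It was 3 without HFD + PCB 126 replicate 1 and 2 without HFD + Aroclor + PCB 126 replicate 3, where 3416 and 3065 genes of the whole table passed. For the interaction, 0 of 9 passed in edgeR, 0 passed in DESeq2 and 0 had an unadjusted p under 0.05, against 0% of tested genes past the threshold and 11.9% at the unadjusted level. The comparisons with HFD control share the 5 control mice, and those with the combined exposure share its 5 mice.

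**Figure D3:**
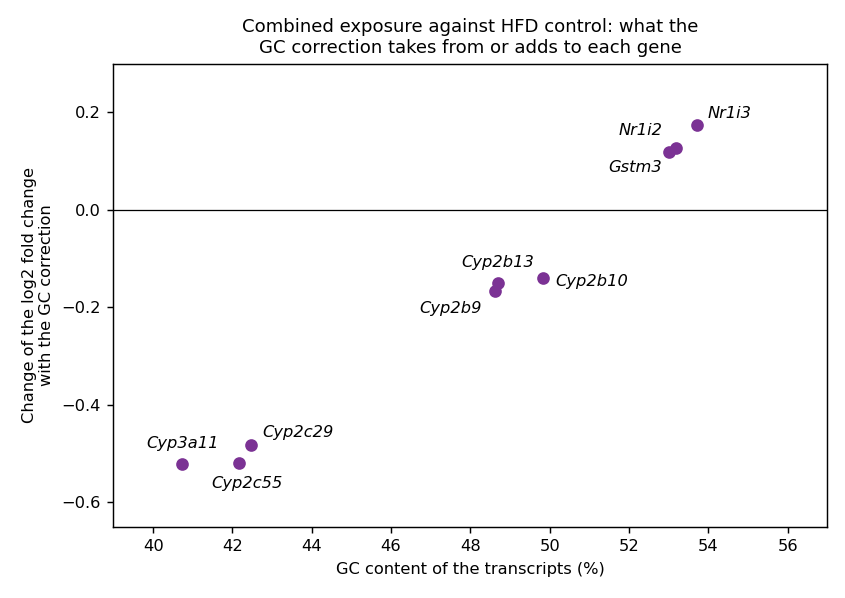
For the combined exposure against HFD control, the change of each gene's log2 fold change when the GC trend of the libraries was removed (vertical axis, log2 units) against the GC content of its transcripts (horizontal axis, percent). The 3 genes with 40.7 to 42.5% GC moved down by 0.48 to 0.52, and the 3 genes with 53.0 to 53.7% GC moved up by 0.12 to 0.17.

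The members fell into 3 sets by GC content, and the correction moved each set differently with the combined exposure. Cyp3a11 (40.7% GC), Cyp2c55 (42.2%) and Cyp2c29 (42.5%) moved by -0.52, -0.52 and -0.48 on the log2 scale. The Cyp2b genes, with 48.6 to 49.8% GC, moved by -0.14 to -0.17. Gstm3, Nr1i2 and Nr1i3, with 53.0 to 53.7% GC, moved by 0.12 to 0.17, and the log2FC of Nr1i3 became 0.64 (edgeR adjusted p = 0.0826). The shift depends on GC content by construction of the correction.

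Other genes of the pathway were described from 8 lists. With Aroclor alone, 0 of their 122 tested genes passed in edgeR, 27 had an unadjusted p under 0.05 and 3 passed in DESeq2. With PCB 126 alone, 2 passed in edgeR, both AhR targets, 26 had an unadjusted p under 0.05 and 11 passed in DESeq2. Of all tested genes, 17.2% and 14.7% had an unadjusted p under 0.05 with Aroclor and with PCB 126. In DESeq2, 135 and 320 of all 15522 tested genes passed with these exposures. Of 23 receptor partners, cofactors and regulators, with both exposures 5 were higher and 6 lower than in HFD control, which is 47.8% against 32.8% of all tested genes. The list median was -0.20, against -0.00096 over all tested genes. Rxra and Rxrb, which encode the partner RXR, fell by 0.54 and 0.80 (adjusted p = 0.00976 and 0.00142). Ppargc1a, a coactivator of fasting metabolism, rose by 0.97 ± 0.14 (SE, adjusted p = 0.000505), from 5.31 ± 0.555 to 10.4 ± 0.969 CPM (SD, n = 5). Arnt, the partner of AhR, rose by 0.66 (adjusted p = 0.00104) and Med1, a Mediator subunit that binds nuclear receptors, by 0.38 (0.00246). With the GC trend removed 2 were higher, Ppargc1a (0.73, adjusted p = 0.00771) and Arnt (0.45, 0.0212), and 1 lower, Hsp90ab1, a chaperone of cytoplasmic CAR (log2FC -0.56, adjusted p = 0.0408). Rxra then stood at -0.05 and Rxrb at -0.26.

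Of 23 tested phase I genes reported as CAR or PXR targets, 6 were higher and 0 lower with both exposures. That is 26.1%, against 32.8% of all tested genes. The list median was 0.56. Cyp3a25 rose by 0.76 (edgeR adjusted p = 0.00142), Cyp2c50 by 0.70 (0.00254), Cyp2c54 by 0.95 (0.0032) and Aldh1a1, which makes retinoic acid, by 0.69 (0.0035). With the GC trend removed 0 passed in edgeR and 1 had an unadjusted p under 0.05, and these 4 stood at 0.24, 0.22, 0.49 and 0.29. Against PCB 126 alone 4 were higher and 2 lower (26.1%, against 16.7% of all tested genes), and with the GC trend removed 0 of these and 0 of all tested genes passed in edgeR, while 3311 of all tested genes had an unadjusted p under 0.05 and 3697 passed in DESeq2 without that correction. The lower ones were Por, the electron donor of the microsomal P450s (-0.63, adjusted p = 0.032), and Alas1, the first enzyme of haem synthesis (-0.63, 0.0336), which stood at -0.37 and -0.54 with the GC trend removed (adjusted p = 0.277 and 0.154).

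Of 23 phase II genes, which conjugate products for export, 8 were higher and 2 lower with both exposures (43.5%, against 32.8% of all tested genes, with a median of 0.37). Ugt1a9, a glucuronosyltransferase, rose by 1.88 ± 0.37 (SE, edgeR adjusted p = 0.00138), from 8.75 ± 2.44 to 32.3 ± 11.2 CPM (SD, n = 5). Papss2, which makes the sulphate donor, rose by 0.92 (0.00155). Both passed with the GC trend removed, at 1.53 (0.0158) and 0.69 (0.0306), and no other gene of this list did, so 2 of 23 were called against 6.64% of tested genes. Ugt2b34 and Ugt2b35 rose by 0.64 and 0.55 (0.00104 and 0.00435) and stood at 0.12 and 0.02 with the GC trend removed.

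Of 9 transporter genes, 5 were higher and 0 lower with both exposures (55.6%, against 32.8% of all tested genes, with a median of 0.50). Abcb1a, a drug efflux pump, rose by 1.63 ± 0.33 (SE, edgeR adjusted p = 0.00164), from 3.54 ± 1.42 to 11.1 ± 2.62 CPM (SD, n = 5), and passed with the GC trend removed at 1.39 (0.0144). Slco1a4, an uptake carrier, rose by 1.05 (0.00652), Abcc2, the canalicular export pump, by 0.56 (0.00656) and Abcg2 by 0.44 (0.00586). These 3 stood at 0.49, 0.23 and 0.04 with the GC trend removed and did not pass. Of 17 growth and metabolic genes reported as CAR targets, 2 were higher with both exposures (11.8%, against the same 32.8%). They were Cd36, a fatty acid uptake receptor (1.13, 0.00104), and G6pc, the last enzyme of glucose output (0.82, 0.0497). Neither of these passed with the GC trend removed (0.57 and 0.58), while Tsku, a secreted protein, then did (0.73, adjusted p = 0.0369, against 0.38 and 0.168 without the correction).

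Of 6 AhR targets, 2 were higher with PCB 126, against 0.116% of all tested genes called. Cyp1a2 rose by 2.04 ± 0.24 (SE, edgeR adjusted p = 0.000294), from 387 ± 99.4 to 1590 ± 606 CPM (SD, n = 5), and Cyp1a1 by 6.93 ± 1.08 (adjusted p = 0.0095), from 0.612 ± 0.284 to 78.6 ± 134 CPM. With both exposures 1 of 6 was higher (16.7%, against 32.8% of all tested genes). It was Cyp1a2, by 1.00 (adjusted p = 0.00325, and 0.0216 with the GC trend removed). Against PCB 126 alone, Cyp1a1 and Cyp1a2 had log2FC of -5.87 and -1.04 with both exposures (adjusted p = 0.0136 and 0.0144, and 0.0508 and 0.076 with the GC trend removed). With Aroclor, 0 of the 6 passed in edgeR or DESeq2 and 0 had an unadjusted p under 0.05. With PCB 126, no CAR or PXR member had a call, while these AhR targets did. A difference in response between the sets was not tested.

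Because Cyp2b9 and Cyp2b13 are known as female-predominant in mouse liver, sex-dependent genes were described as well. Of 12 tested female-predominant genes, 2 were higher with both exposures (16.7%, against 32.8% of all tested genes). Among them was Acot3 (log2FC 1.47, edgeR adjusted p = 0.0386). With the GC trend removed, 0 of the 12 passed in edgeR and 2 had an unadjusted p under 0.05, and the adjusted p of Acot3 was 0.0673. Of 12 male-predominant genes, 1 was lower (8.33%), Elovl3, a fatty acid elongase, by 0.80 (0.00743, and 0.0141 with the GC trend removed). An unadjusted p under 0.05 was reached by 3 of the 12 (42.4% of tested genes), and by 5 with the GC trend removed (24.4%). The list medians were 0.21 for the female-predominant and -0.40 for the male-predominant genes, against -0.00096 over all tested genes. With the GC trend removed they were -0.02 and -0.51, against -0.035.

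Of the cell type markers examined, some passed with the combined exposure against HFD control, as did 32.8% of all tested genes. Of 7 hepatocyte markers 3 were lower, Apoa1, Serpina1a and Ttr, with sums of 80360 to 89930 CPM in HFD control and 74470 to 103400 with both. The stellate cell markers, 3 of 5 of which were higher, summed to 124 to 245 CPM in HFD control and 265 to 324 with both exposures. Of 7 pericentral hepatocyte markers, the zone where these P450 genes are mainly expressed, 1 was higher and 1 lower, with sums of 22090 to 28070 and 24000 to 30990 CPM. Of 4 lymphocyte markers 1 was higher, with sums of 7.54 to 15.3 and 14.4 to 18.0 CPM. Of 6 periportal markers 1 was higher and 2 lower, of 6 Kupffer cell markers 1 was higher, of 4 endothelial markers 1 was lower, and of 4 cholangiocyte markers 0 passed in edgeR. With the GC trend removed, 1 hepatocyte and 1 endothelial marker were lower, 1 pericentral marker was higher and 0 of the stellate cell markers passed. Of all tested genes, 6.64% then passed. The part of the markers' cell types in the members' values was not tested.

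Across mice of the same group, several pairs of members varied together. After the group means were removed, r was positive in 35 of 36 pairs, and 5 of 36 passed an adjusted p of 0.05 (permutation test within groups over 20 mice, Benjamini-Hochberg over the 36 pairs), all with positive r. The count was 4 with the GC trend removed, 3 without either HFD control replicate 2 or replicate 4, and 11 without HFD + PCB 126 replicate 4. HFD control replicate 4 was the lowest control for 9 of 9 members. Counts for pairs of other genes were not computed, and libraries share depth and GC differences. These counts therefore cannot be read as particular to the members. The 5 pairs called were Cyp2b9 with Cyp2b13, Cyp2c55 with Cyp2c29, Nr1i2 with Nr1i3, Cyp2b10 with Cyp3a11, and Cyp2c55 with Gstm3. Cyp2b9 and Cyp2b13, whose promoter stretches are printed above, gave r = 0.88 (rho = 0.81, permutation p = 2e-05 for r and 0.00011 for rho, adjusted p = 0.00072 and 0.00396). Without the 2 mice farthest from the median of Cyp2b9, r was 0.86. In each pair these 2 mice were chosen by the gene named first only, so mice far out in the second gene can remain. Of the windows of Cyp2b9 and of Cyp2b13, 5.16% also occur in the other gene. In HFD control the mean was 16.9 CPM for Cyp2b9 and 0.674 for Cyp2b13. What shared reads add to this r was not tested.

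Cyp2c55 and Cyp2c29 gave r = 0.83 (rho = 0.79, permutation p = 7e-05 and 0.00027, adjusted p = 0.00126 and 0.00486), and 0.80 without the 2 farthest mice. The receptor genes Nr1i2 and Nr1i3 gave r = 0.78 (rho = 0.72, permutation p = 0.00119 and 0.00467, adjusted p = 0.0107 and 0.042), and 0.67 without the 2 farthest mice. Their adjusted p was 0.0771 without HFD control replicate 4 and 0.0632 without HFD control replicate 2. Cyp2b10 and Cyp3a11, the classic targets of CAR and of PXR, gave r = 0.70 (rho = 0.75, permutation p = 0.00095 and 0.00087, adjusted p = 0.0107 and 0.0104), and 0.82 without the 2 farthest mice, but an adjusted p of 0.069 with the GC trend removed. Cyp2c55 and Gstm3 gave r = 0.72 (rho = 0.60, permutation p = 0.00267 and 0.0189, adjusted p = 0.0192 and 0.136), and 0.67 without the 2 farthest mice. That pair lost its call without any 1 of the 5 control mice or HFD + PCB 126 replicate 1 (adjusted p = 0.0575 to 0.145).

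**Figure D4:**
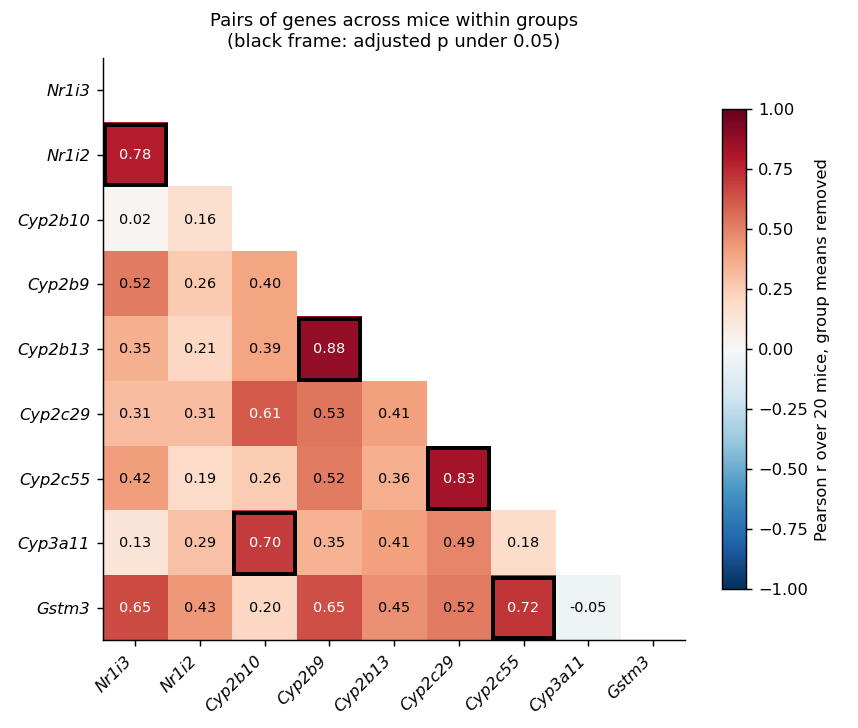
Pearson r of log2 CPM between each pair of the 9 genes over 20 mice after the group means were removed, as a colour scale from -1 to 1 with the value in each cell. Black frames mark the 5 of 36 pairs with an adjusted permutation p under 0.05, from r = 0.70 to r = 0.88.

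The pairs of a receptor gene with its classic target were not among the called pairs. Since the called pairs were picked out by their r in the same data, a lower r in other pairs follows from that choice. Nr1i3 with Cyp2b10 gave r = 0.02 (adjusted permutation p = 0.957) and Nr1i2 with Cyp3a11 r = 0.29 (0.326). As the map of r by pair shows, 1 of 36 values was below 0, that of Cyp3a11 with Gstm3 (-0.05).

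Over all 20 libraries, with the groups left in, the genes with the most similar log2 CPM among 11342 genes were listed as a description. The libraries share depth and GC differences, so similarity may include them. For Cyp2b10 these were Tiparp (r = 0.80), Sgk1 (0.80) and Ddit4 (0.79). For Cyp2c55 they were Cyp2c38 (r = 0.92), Epb41l2 (0.92) and Fam171a1 (0.91), and for Cyp3a11 Map3k15 (r = 0.81), Cyp3a25 (0.81) and Cyp2c50 (0.80). For Nr1i3 they were Col27a1 (r = 0.87), Glt1d1 (0.86) and Ugt1a6a (0.85).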

How the data were processed

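Liver RNA of 20 mice was sequenced by the authors from stranded polyA libraries. From these reads the authors made the deposited table of raw counts, which has 1 row for each of 21780 Ensembl genes, aligned with STAR 2.6 to GRCm38.p6 and counted with HTSeq 0.10.0 after a FastQC 0.10.1 check, per the submitters' processing notes and the methods. The annotation release and strand setting of the counting are not given in the sources used here. Groups came from the sample titles, and every column matched a sample. In the label of 1 library (PCB 126 replicate 2) the parts carry different numbers, and the title was followed. Counts of the 40 pairs of mice of a group differed by more than sampling noise (chi-square per degree of freedom at least 18.7).

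Genes with at least 10 counts in total (15522) were fitted with edgeR 4.0.16 in R 4.3.3 (TMM, 4 groups in 1 fit, 16 residual degrees of freedom), and groups were compared by its quasi-likelihood F-test (two-sided), with p-values adjusted by Benjamini-Hochberg across every tested gene. The threshold was an adjusted p of 0.05. FPKM was computed from CPM and the exon length of GENCODE M21. The GC correction took, per library, a spline with 6 degrees of freedom of log2 CPM (prior count 2) over transcript GC as an offset. Permutation tests of pairs used 100000 permutations within groups. Windows of 75 bases were compared with all GENCODE M21 transcripts. On simulated counts of the combined exposure and HFD control (15360 genes, 200 of them changed by a log2FC of 1), edgeR recovered 82.5% with 2.94% of its calls false, and DESeq2 86% with 16.1% false. The simulated counts used the dispersions of the edgeR fit and held no GC trend, and the changed genes had a mean of at least 1 CPM. They therefore cannot rank edgeR against DESeq2 on the real counts. DESeq2 1.42.0, other filters and scalings, the replicate number, the GC correction and leaving out each mouse were alternatives. The members, lists and tests were chosen with earlier results of these data known. The text names all members, up to 4 genes per list and comparison with the smallest adjusted p among those past the threshold, other genes of a list beside its count, and for 4 members the 3 most similar genes. Protein sequences were not used here, and the values of 1 listed gene are not reported here. Intervals and standard errors include the spread between mice, and with a total of at least 21836506 counts a level of 1 CPM stood on at least 22.7 counts.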

Additional observations from a re-analysis of the deposited data

Results flagged for a closer look

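In each of the 36 sets of 5 mice (9 genes in 4 groups), the highest and the lowest CPM were examined for a gap to the next mouse that took up most of the range of the set, and 2 sets were picked out. Chance alone picks about 1 in 20 sets if values are normally distributed, which CPM need not be. Cyp2b9 in HFD + Aroclor + PCB 126 replicate 1 was at 82.4 CPM, and the other 4 mice of that group were at 20.9 to 35.8. Without this mouse, the log2FC of Cyp2b9 against HFD control was 0.69 (edgeR adjusted p = 0.658), against 1.17 with it, and without HFD control replicate 2 it was 2.49 (0.0697). Cyp2c55 in HFD + PCB 126 replicate 1 was at 3.46 CPM, and the other 4 mice were at 0.249 to 1.02. Without this mouse, the log2FC of Cyp2c55 between both exposures and PCB 126 alone was 1.97 (edgeR adjusted p = 0.0082), against 1.14 (0.113) with it. HFD control replicate 4, the lowest control for 9 of 9 genes, was not picked out in any single gene. The gaps were measured in CPM and not on a log scale, so for genes with values near 0 a low mouse could hardly be picked out.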

How the results depend on the processing

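The depth, at 22.7 or more counts per CPM, left Cyp2b13, Cyp2b9, Cyp2c55 and Cyp2b10 with 0, 4, 6 and 8 counts in their lowest mouse and the other 5 members with at least 40, and the wide spread between mice set the width of most intervals. Cyp3a11 and Cyp2c29 kept a positive difference with both exposures against HFD control under every alternative, but with the GC correction 0 members passed in any comparison, where 2 had passed against HFD control and 1 against PCB 126, and the same held for the GC correction with the replicate block. Only the groups compared left 1 member in the first of these. Against PCB 126 alone, 2 members passed in DESeq2, with filterByExpr and with the filter on FPKM, and 3 with the replicate block. Of all 15522 tested genes, 3697 passed there in DESeq2 and 3127 with the block. With the block 3 members also passed against HFD control, Cyp2b10 being added (adjusted p = 0.0431), as did 5292 of all tested genes. Against Aroclor alone, 1 member passed in DESeq2, as did 1343 of all tested genes. With so few members, these member counts cannot be told apart from the shares of the table. The cause of the changes between settings was not tested.

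The labels tie the replicate numbers to no shared animal or batch, so the numbers were not taken as a pairing. Of 30 pairs with the same number, 13 had a correlation of deviations over 0.1. That correlation was -0.26 to 0.74 (median 0.050), and -0.53 to 0.46 (median -0.012) for 120 pairs with other numbers. As a hint from the data and not the design, 9 of 20 libraries were closest to their own number. Whether the numbers mark a structure in the data was not tested. With the number as a block, the genes past the threshold over the whole table went from 0 to 26 with Aroclor, from 18 to 101 with PCB 126, from 64 to 475 for both against Aroclor and from 0 to 38 for the interaction. DESeq2 gave 135, 320, 1343 and 1 for these. The GC correction gave 38 with PCB 126, 1030 with both (5089 without it), 1 against Aroclor and 0 against PCB 126 (2589 without it), and with the block as well 25 with Aroclor, 148 with PCB 126, 1312 with both, 260 against PCB 126 and 44 for the interaction. With PCB 126, filterByExpr gave 68, the filter on FPKM 47 and only the groups compared 4. Against Aroclor, RLE size factors gave 107, no filter 13, filterByExpr 292, the filter on FPKM 636 and only the groups compared 0.

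Leaving out each mouse in turn, these counts ranged from 0 to 2 with Aroclor, 4 to 127 with PCB 126, 3894 to 5679 with both exposures, 0 to 1036 against Aroclor and 4 (without HFD + PCB 126 replicate 3) to 3416 against PCB 126. The members past the threshold ranged from 1 to 4 with both exposures and 0 to 3 against PCB 126, and the pairs from 3 to 11 (11 without HFD + PCB 126 replicate 4).

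Differences that did not pass changed sign as follows. With the replicate block and with the block and GC correction, Cyp2b9 with PCB 126 went to 0.67 and 0.68, Gstm3 with both to 0.18 and 0.29 and the Cyp2b13 interaction to -0.15 and -0.24. With the GC correction, alone and with the block, Cyp2c55 against Aroclor went to -0.24 and -0.16, Nr1i2 with Aroclor to 0.029 and 0.054 and Nr1i3 against PCB 126 to 0.070 and 0.071 (0.019 with the filter on FPKM). Leaving out each mouse, the ranges that crossed 0 were -0.81 to 0.26 for Cyp2b10 and -0.16 to 0.19 for Cyp2c55 against Aroclor, -0.085 to 0.089 for Nr1i3 against PCB 126, -0.13 to 0.038 for Nr1i2 and -0.32 to 0.054 for Nr1i3 with Aroclor, -0.22 to 1.77 for Cyp2b13, -0.75 to 1.04 for Cyp2b9, -0.22 to 0.17 for Cyp2c29, -0.018 to 0.20 for Cyp3a11 and -1.20 to 0.16 for Gstm3 with PCB 126, -0.51 to 0.53 for Gstm3 and -0.0068 to 0.14 for Nr1i2 with both. For the interaction they were -0.96 to 1.05 for Cyp2b13, -0.54 to 1.41 for Cyp2b9, -1.13 to 0.23 for Gstm3, -0.15 to 0.043 for Nr1i2 and -0.098 to 0.30 for Nr1i3.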
